A study of Sus scrofa with 10 samples.

Results

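CTCF, SMC4 and ESCO1, 3 genes that shape how chromosomes are folded, were followed in sorted porcine fetal fibroblasts. All probe sets that the platform's annotation assigns to these symbols alone were taken, which gave 5 of 24123 probe sets on the array and 3 of 6765 named genes. CTCF had 2 probe sets, SMC4 had 2 and ESCO1 had 1. The genes were singled out because they read lower in 1 sorted fraction, so their differences between fractions are given as a description, without a test.

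The cells were fibroblasts grown from fetal tissue, head excluded, of day 24 Danish Landrace/Yorkshire x Duroc fetuses, in medium with 10% serum. Magnetic beads against SSEA-1, the Lewis X carbohydrate carried on the surface of several embryonic and stem cells, parted them into SSEA1+ and SSEA1- fractions. Both fractions carried replicate numbers 1 to 5, and RNA from each was hybridised to its own Affymetrix porcine array, 10 arrays in all. The series text calls the replicates biological but its title names a single cell line, so they need not be separate fetuses, and p-values measure the spread between these samples.

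CTCF is a zinc finger protein that binds DNA and halts the cohesin ring as it extrudes loops of chromatin, which places the boundaries of chromosome domains. Cohesin also holds sister chromatids together, and ESCO1 is an acetyltransferase that modifies its SMC3 subunit through interphase, whereas the related ESCO2 acts during replication. SMC4 pairs with SMC2 as the ATPase core of condensin, the complex that compacts chromosomes for mitosis. Fibroblasts in culture divide, and CTCF and cohesin act in them throughout interphase as well.

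Values are log2 signals, on which a difference of 1 is a 2-fold change. Between 69.3% and 72.5% of the probe sets on each array lay above 0.352, the background set by control probe sets for absent sequences. All 5 probe sets of CTCF, SMC4 and ESCO1 lay above it on all 10 arrays. Of the 11 fibroblast markers listed, 9 were measured and all 9 lay above background on every array, with a summed log2 signal of 63.3 to 65.0 in SSEA1+ and 62.6 to 64.4 in SSEA1-. Poly-A RNAs are added as controls before amplification, and their level above that of the hybridisation controls ran from -3.45 to -2.66 in SSEA1+ and from -4.32 to -3.80 in SSEA1-. SSEA-1 status and this level cannot be fully told apart. Values adjusted for it are given below for the 5 probe sets and, as counts and medians, for the gene lists.

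CTCF read lower in SSEA1+ on both probe sets, but by different amounts. On the brighter one, SSEA1+ replicates 1 to 5 read 4.60, 4.58, 4.76, 5.02 and 4.75, and SSEA1- replicates 1 to 5 read 5.04, 4.79, 5.22, 5.16 and 5.12. The fractions overlapped, because SSEA1+ replicate 4 stood above SSEA1- replicate 2. The means were 4.74 ± 0.18 and 5.07 ± 0.17 (SD, n = 5 each), a log2 difference of -0.33 ± 0.10 (SE), or 1.25-fold.

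On the dimmer CTCF probe set, SSEA1+ replicates 1 to 5 read 2.76, 2.92, 3.06, 2.64 and 2.68. The SSEA1- replicates read 3.87, 3.68, 3.78, 3.59 and 3.74. Here every SSEA1+ array stood below every SSEA1- array, with 0.54 between the nearest values. The difference of -0.92 ± 0.09 (SE), or 1.90-fold, was the furthest below 0 among the 5 probe sets, and 41 of the 23935 probe sets that are not controls read further below. For the brighter CTCF probe set that number was 1293. CTCF was chosen on this contrast, so nothing is read from these ranks.

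The CTCF probe sets thus moved apart: the brighter minus the dimmer signal was 1.93 ± 0.30 in SSEA1+ and 1.33 ± 0.19 in SSEA1- (SD, n = 5 each). Its lowest SSEA1+ value, 1.67, lay above its highest SSEA1- value, 1.56. Which part of the CTCF transcript each probe set reads was not analysed here. The mean of both probe sets differed by -0.62 ± 0.07 (SE).

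SMC4, the condensin ATPase, also read lower in SSEA1+ on both probe sets. On the brighter one, SSEA1+ replicates 1 to 5 read 4.20, 4.19, 4.76, 4.62 and 4.68, and SSEA1- replicates 1 to 5 read 5.23, 4.76, 5.52, 5.52 and 5.51. The fractions met without overlapping, since SSEA1- replicate 2 stood only 0.0028 above SSEA1+ replicate 3. The difference was -0.82 ± 0.16 (SE), or 1.76-fold, from 5.31 ± 0.33 to 4.49 ± 0.27 (SD, n = 5 each). Within replicate numbers the differences ran from -1.02 to -0.57.

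The dimmer SMC4 probe set read 2.91, 3.01, 2.88, 3.16 and 2.88 in SSEA1+ replicates 1 to 5 and 3.16, 3.10, 3.85, 3.56 and 3.77 in SSEA1-. The SSEA1+ arrays lay close together, with an SD of 0.12 against 0.34 in SSEA1-. SSEA1- replicates 1 and 2 reached down to the highest SSEA1+ array, and replicates 3, 4 and 5 lay well above. The difference of -0.52 ± 0.14 (SE), or 1.43-fold, was therefore uneven across replicates, from -0.97 in replicate 3 to -0.088 in replicate 2. The brighter minus the dimmer SMC4 signal was 1.52 ± 0.31 in SSEA1+ and 1.82 ± 0.18 in SSEA1- (SD, n = 5 each), with overlapping ranges, so the mean gap was smaller in SSEA1+ for SMC4 and larger for CTCF.

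ESCO1, the interphase acetyltransferase of cohesin, read 1.75, 1.98, 1.45, 2.08 and 1.78 in SSEA1+ replicates 1 to 5 and 2.79, 2.59, 2.62, 2.40 and 2.76 in SSEA1-, on its single probe set. No SSEA1+ array reached the lowest SSEA1- array, and 0.33 lay between the nearest values, both of replicate 4. The difference was -0.83 ± 0.11 (SE), or 1.77-fold, from 2.63 ± 0.15 to 1.81 ± 0.24 (SD, n = 5 each). It was smallest in replicate 4, at -0.33, and furthest below 0 in replicate 3, at -1.17. These are RNA samples of whole fractions, so fewer cells with the transcript and less of it per cell cannot be told apart.

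For each of the 5 probe sets, SSEA1+ read below SSEA1- in 5 of 5 replicate numbers, and 3 of the 5 had fractions that did not overlap. Control probe sets aside, 3.32% of the array's probe sets had SSEA1+ wholly below SSEA1-. The members were chosen on this contrast, and nothing is read from that count.

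**Figure D1:**
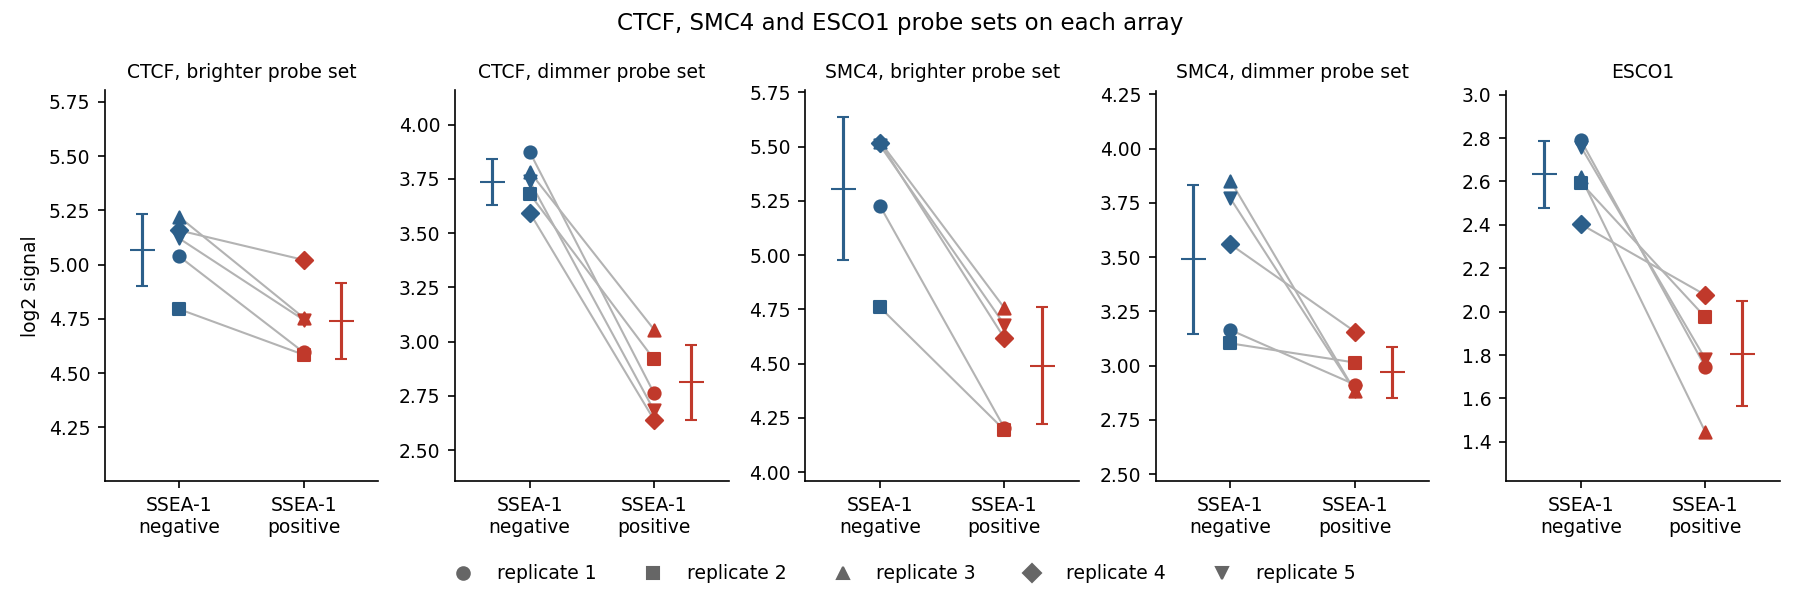
Log2 signal of each probe set (vertical axis, the same span in each panel around its own centre) in the SSEA-1 negative (blue) and positive (red) fractions; symbols mark replicate numbers, grey lines join equal numbers, and bars beside them give the mean and SD of 5 arrays. All lines run downward from negative to positive, steeply for the dimmer CTCF probe set (-0.92) and least for the brighter one (-0.33).

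The probe sets of the 3 genes differed in how they varied among arrays of the same fraction, which the choice of genes did not use. Probe sets of 1 gene differed in this too. Each array's deviation from its fraction mean was set against that of the mean of 18 measured proliferation genes, such as TOP2A, CCNB1 and MCM2. Over the 10 arrays the brighter SMC4 probe set followed these genes with Pearson's r = 0.89 (Spearman's rho = 0.90), and r = 0.66 without the 2 arrays farthest from the SMC4 median. The brighter CTCF probe set followed them too, with r = 0.84 (rho = 0.88) and 0.82 without its 2 farthest arrays. Replicate 2 was the low end in both fractions, at -0.83 (SSEA1-) and -0.63 (SSEA1+) for the proliferation mean, -0.55 and -0.30 for SMC4, and -0.27 and -0.16 for CTCF.

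The brighter SMC4 and CTCF probe sets also moved with each other within fractions, with r = 0.83 (rho = 0.75) and 0.89 without 2 arrays. The remaining probe sets behaved differently. The dimmer CTCF probe set gave r = -0.11 with the proliferation mean and r = -0.25 with the brighter CTCF probe set. ESCO1 gave r = -0.35 with the proliferation mean and r = -0.24 with the brighter SMC4 probe set. The dimmer SMC4 probe set lay between, with r = 0.58 against the proliferation mean, falling to 0.20 without its 2 farthest arrays. These correlations describe 10 arrays that share sorts, replicate numbers and control levels, and no p is given.

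Against the poly-A control level, the ESCO1 deviations gave r = -0.68 (rho = -0.44), and -0.35 without 2 arrays. The dimmer CTCF probe set gave r = 0.57 (rho = 0.42), and -0.039 without 2 arrays, and the dimmer SMC4 probe set gave -0.12, or -0.53 without 2 arrays. SSEA1+ replicate 3 had the highest control level of all 10 arrays and the lowest ESCO1 signal. With the control level as a covariate the ESCO1 difference was -0.43 ± 0.18, and adding a block for the number of the replicate gave -0.13 ± 0.29 (SE). The brighter SMC4 probe set read -1.09 ± 0.29 and -1.04 ± 0.24 in the same fits, and the dimmer CTCF probe set -1.16 ± 0.16 and -1.21 ± 0.24. The dimmer SMC4 probe set read -0.43 ± 0.27 and, with the block, 0.069 ± 0.36, on the other side of 0. The brighter CTCF probe set read -0.39 ± 0.20 and -0.07 ± 0.23. Since no SSEA1+ array had a control level as low as any SSEA1- array, these adjusted values are extrapolated by the model.

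**Figure D2:**
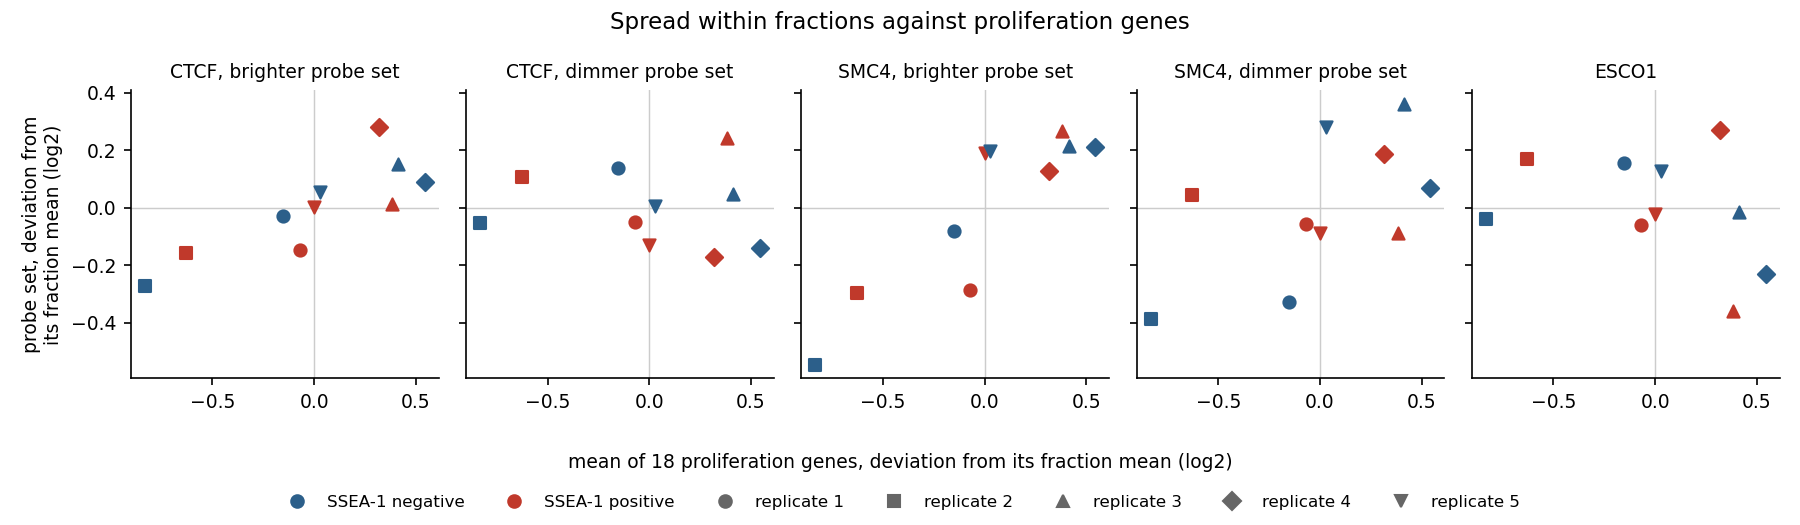
Each array's deviation from its fraction mean (log2) for the 5 probe sets (vertical axes) against that for the mean of 18 proliferation genes (horizontal axes); blue is SSEA-1 negative, red is SSEA-1 positive, and symbols mark replicate numbers. The brighter SMC4 and CTCF probe sets rise from lower left to upper right (r = 0.89 and 0.84), while the dimmer CTCF probe set and ESCO1 show no such slope (r = -0.11 and -0.35).

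The partners of these genes were read from 6 lists: the cohesin ring, its loading and release, establishment and cleavage of cohesion, condensin, the SMC5/6 complex, and proteins that bind or work beside CTCF. Of their 62 genes other than the 3 members, 19 were measured, each read from its brightest probe set. Measured here means that a probe set had the gene's symbol alone. In the annotation used, 13826 of 24123 probe sets had no symbol, so the array may read further listed genes unnamed. Limma was fitted without pairing and adjusted over all probe sets by Benjamini-Hochberg with a threshold of 0.05. By this fit 2 of the 19 fell in SSEA1+, none rose and 17 did not pass. Among all 6765 genes 7.39% passed, 4.18% lower and 3.21% higher, while unadjusted p-values under 0.05 were found for 8 of the 19 and for 23.8% of all genes. In the fit with the replicate block 6 of the 19 fell, where 8.62% of all genes fell and 5.65% rose. The median log2 difference of the 19 was -0.24, against -0.0085 over all genes, and 13 of 19 read below 0, as did 52.4% of all genes. The lists were chosen with earlier results of these data known, so these counts and medians are a description and no independent support.

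Cohesin was covered by a few genes. RAD21, the ring's cleavable closing subunit, was the only 1 of 9 ring genes measured. It read 6.62, 6.63, 7.10, 6.79 and 6.79 in SSEA1+ replicates 1 to 5 and 6.95, 6.88, 7.13, 7.15 and 7.27 in SSEA1-. SSEA1+ replicate 3 stood among the SSEA1- arrays, so the fractions overlapped, though SSEA1+ was lower in 5 of 5 numbers. The difference of -0.29 ± 0.10 (SE) did not pass in limma at an adjusted p of 0.123, but passed with the replicate block at 0.0352.

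NIPBL, which loads cohesin onto DNA, read -0.45 ± 0.13 (SE, limma adjusted p = 0.0641), and WAPL, which releases it, read -0.30 ± 0.13 (SE, limma adjusted p = 0.216). Both were lower in 4 of 5 numbers, and neither passed with the block. In SSEA1+ replicate 3 both had their lowest value, 4.12 for NIPBL and 4.34 for WAPL, as ESCO1 did. Of 5 measured genes for establishment and cleavage of cohesion limma called none, and DDX11 alone had an unadjusted p under 0.05. They included the helicase DDX11 at -0.21, the acetyltransferase NAA50 at -0.22 and securin, PTTG1, at -0.48 ± 0.30 (SE, limma adjusted p = 0.426, or 0.0113 with the block).

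Condensin partners of SMC4 were measured for condensin II alone. NCAPD3, a HEAT-repeat subunit of that complex, read 2.57, 1.91, 2.75, 2.69 and 2.27 in SSEA1+ replicates 1 to 5. In SSEA1- it read 2.84, 2.40, 3.60, 3.27 and 3.10. It was lower in 5 of 5 numbers, by -0.60 ± 0.21 (SE), with overlapping fractions. It did not pass in limma, at an adjusted p of 0.110, and passed with the replicate block at 0.00287. NCAPH2, the kleisin that closes the condensin II ring, differed by 0.02 ± 0.12 (SE, limma adjusted p = 0.958), and its second probe set, which lay near background, read -0.12.

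Of the SMC5/6 complex, another SMC family complex, which acts in DNA repair, NSMCE4A was measured. It read 4.01, 3.65, 4.05, 3.98 and 3.76 in SSEA1+ and 4.26, 3.99, 4.45, 4.60 and 4.54 in SSEA1-, replicates 1 to 5. SSEA1- replicate 2 lay among the SSEA1+ arrays. NSMCE4A fell by 0.48 ± 0.12 (SE, limma adjusted p = 0.0324). Its other probe sets were near background and read 0.12 and -0.13. The limma call ended without SSEA1- replicate 1, 3, 4 or 5 or SSEA1+ replicate 1, 2 or 5, and in 4 of 5 leave-outs of a replicate number, with adjusted p from 0.00753 to 0.177 over the leave-outs.

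Among 8 measured partners of CTCF, SIN3A fell, by 0.31 ± 0.08 (SE, limma adjusted p = 0.0479). SIN3A, the scaffold of a histone deacetylase complex, read 2.59 to 2.87 in SSEA1+ and 2.89 to 3.26 in SSEA1-, and its other probe set read -0.11 without passing. Its call ended in limma without any single array other than SSEA1- replicate 2, with adjusted p from 0.0331 to 0.172 over the leave-outs. It also ended after quantile or cyclic loess normalization and with trend and robust eBayes. TOP2B, a topoisomerase found at CTCF-bound loop anchors, read -0.29 ± 0.09 (SE, limma adjusted p = 0.0712). Its second probe set read -0.42 at an adjusted p of 0.0131 in limma. NPM1 and KPNA2 read -0.15 and -0.31 without passing, KPNA2 at 0.0467 with the block in limma. The second KPNA2 probe set read -0.55 without passing, at 0.00584 with the block in limma. The other 4 read above 0 without passing, among them MAZ, a zinc finger protein, at 0.08 and YY1, a looping factor named after its value was seen, at 0.02. The CTCF partners thus had no shared direction, and their median was -0.064.

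**Figure D3:**
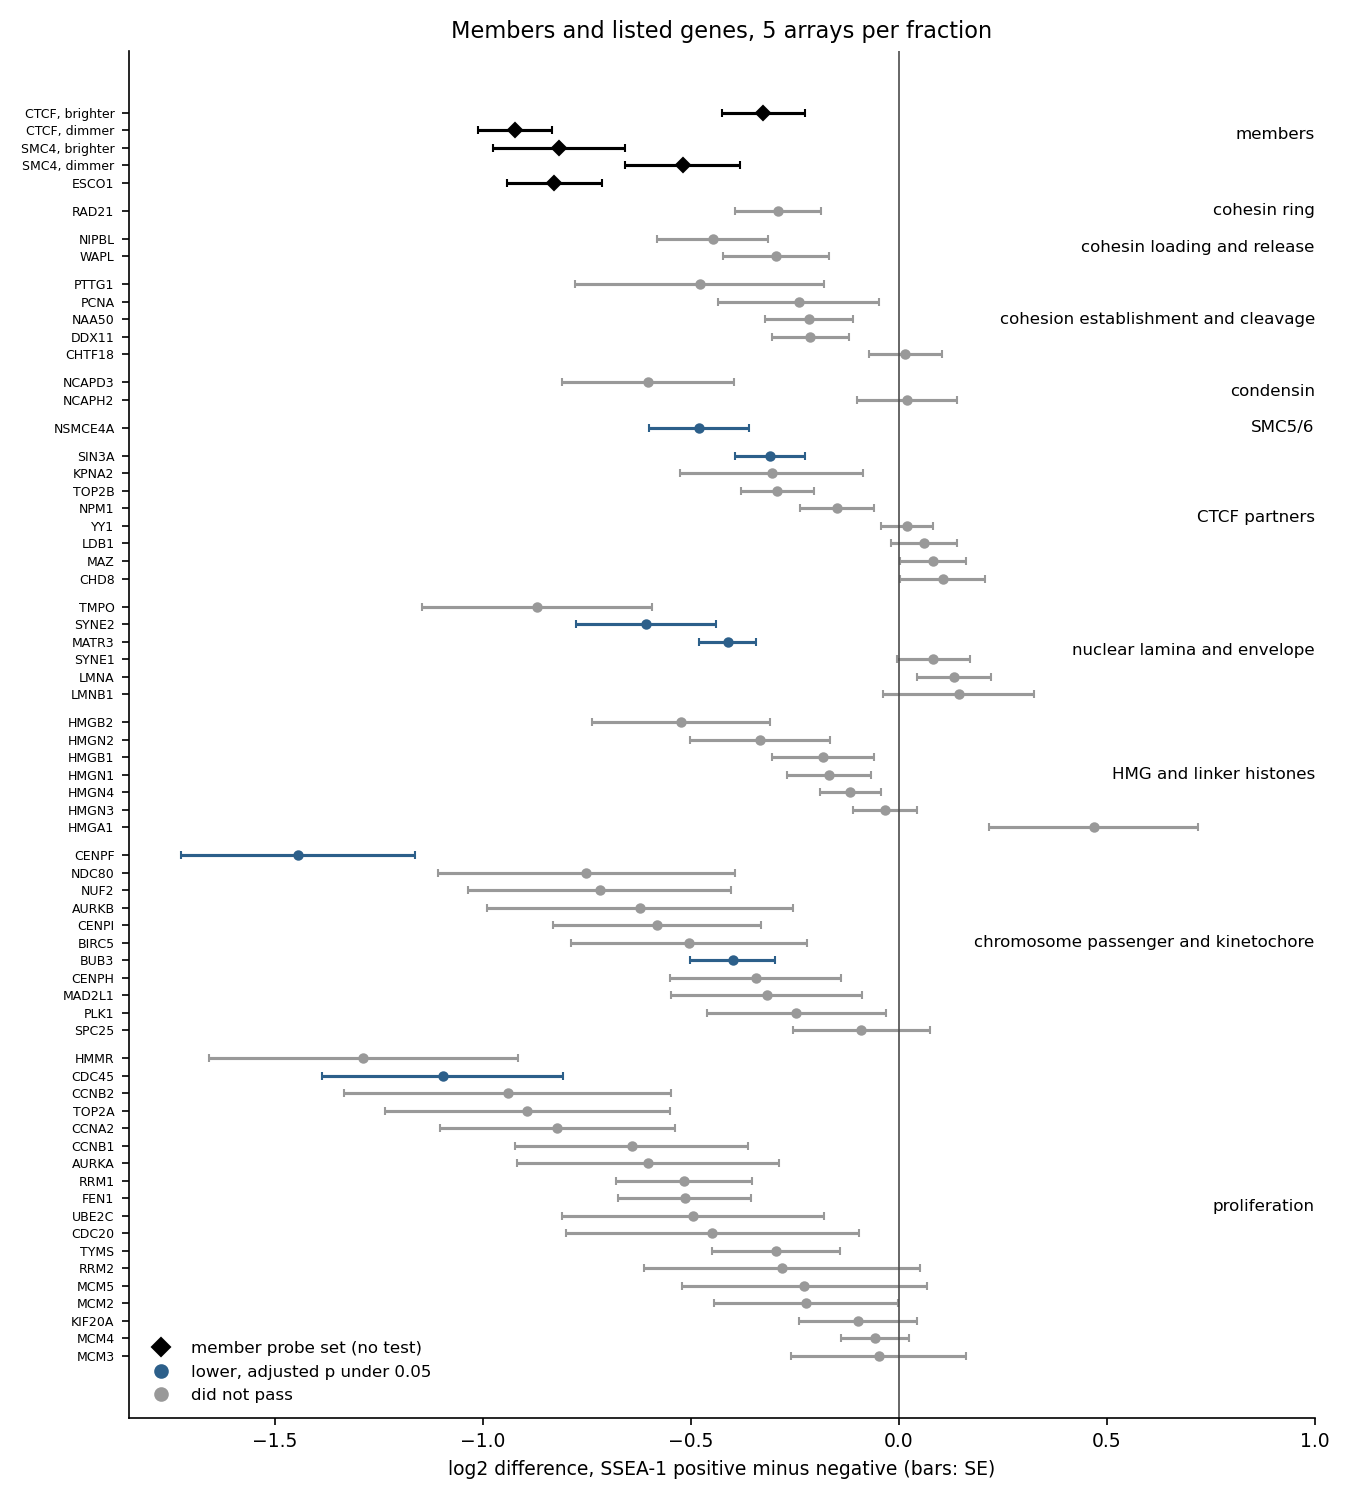
Log2 difference, SSEA-1 positive minus negative, with its SE (horizontal axis) for the 5 member probe sets (black, no test) and the brightest probe set of each measured gene in 10 lists; blue marks genes that fell in limma, grey those that did not pass. None of the 61 listed genes rose, 7 fell, and HMGA1 at 0.47 is the one farthest above 0. Of all genes 4.18% fell and 3.21% rose.

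Wider lists placed these values among other nuclear genes, and in all 10 lists 7 of 61 measured genes fell in limma and none rose, or 30 and 1 with the replicate block. Among all 6765 genes 4.18% fell and 3.21% rose, or 8.62% and 5.65% with the block. An unadjusted p under 0.05 in limma was found for 24 of the 61 and 23.8% of all genes. The median of the 61 was -0.31. The wider lists, too, were chosen with earlier results of these data known, so their counts and medians are a description. Of 6 measured genes listed for the nuclear lamina and envelope, which anchors chromatin at the nuclear rim, MATR3 and SYNE2 fell. MATR3 is in this list but is a protein of the inner nuclear matrix, not of the rim. It read 6.73 to 6.95 in SSEA1+ and 7.13 to 7.34 in SSEA1-, a fall of 0.41 ± 0.07 (SE, limma adjusted p = 0.00491). Its call held in all 15 leave-outs but ended with the poly-A level as a covariate, with or without the replicate block. SYNE2, a nesprin that links the nucleus to the cytoskeleton, fell by 0.61 ± 0.17 (SE, limma adjusted p = 0.0498). The SYNE2 call ended without any single array other than SSEA1- replicate 4. It also ended after quantile or cyclic loess normalization and in the fit without control probe sets. The other SYNE2 probe sets, both dim, read -0.06 and 0.13. TMPO, a lamina-associated protein, read -0.87 ± 0.28 (SE, limma adjusted p = 0.0849, or 0.00085 with the block), whereas LMNA read 0.13 and did not pass. The second LMNA probe set read 0.26 without passing (limma adjusted p = 0.0884).

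None of 7 HMG proteins passed in limma, 1 had an unadjusted p under 0.05, and no listed linker histone matched a probe set with 1 symbol. HMGB2, a DNA-bending protein abundant in dividing cells, read -0.52 ± 0.21, and HMGA1 read 0.47 ± 0.25 (SE), with limma adjusted p of 0.187 and 0.336. With the replicate block both passed, HMGB2 lower at 0.00287 and HMGA1 higher at 0.0176 in limma. HMGN2, a nucleosome-binding protein, read -0.33 and passed with the block in limma at 0.0175, while HMGN1 read -0.17.

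Genes of division, among which SMC4 is usually counted, leaned the same way as SMC4. Of 11 chromosome passenger and kinetochore genes 2 fell, CENPF by 1.44 ± 0.28 and BUB3 by 0.40 ± 0.10 (SE), with limma adjusted p of 0.0105 and 0.0364. CENPI and NUF2 read -0.58 and -0.72. Of 18 proliferation genes CDC45 fell, by 1.10 ± 0.29 (SE, limma adjusted p = 0.0421), and HMMR, FEN1 and RRM1 read -1.29, -0.51 and -0.52 without passing. The second probe sets of CDC45 and FEN1 read -0.46 and -0.086 without passing. All 11 and all 18 read below 0, with medians of -0.50 in each list, against -0.0085 over all genes. The means of both lists moved together over the 10 arrays (Pearson's r = 0.997), so the lists are not separate observations. With the replicate block 8 of the 11 and 11 of the 18 fell. Of all genes 4.18% fell in limma, and 8.62% with the block. The mean of the 18 ran from 3.02 to 4.03 in SSEA1+ and from 3.34 to 4.72 in SSEA1-, so the fractions overlapped where those of the brighter SMC4 probe set met. The part of proliferation in the SMC4 and CTCF differences was not tested.

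The BUB3 call ended without SSEA1- replicate 3, 4 or 5 or SSEA1+ replicate 1, 2 or 5. The CDC45 call ended without any single array other than SSEA1- replicate 2 or SSEA1+ replicate 3. It also ended after quantile normalization and with trend and robust eBayes. The CENPF call held in all 10 single-array leave-outs and ended in 3 of 5 leave-outs of a replicate number. With the poly-A level as a covariate limma called none of the 61 genes; the unadjusted p lay under 0.05 for 32 of them and for 14.6% of all genes. The median of the 61 was then -0.69, further below 0 than the -0.31 without the covariate, while that of all genes was -0.021. In the 6 lists of partners 7 of 19 had such a p, with a median of -0.15. With the replicate block added to the covariate 27 of the 61, 5 of the 19 and 11.4% of all genes had such a p. The medians were -0.27 for the 61, 0.029 for the 19, now above 0, and -0.049 for all genes.

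Among 5692 genes above background, those most like each member over the 10 arrays were named by Pearson's r. NUP88, a nuclear pore protein, was most like the brighter CTCF probe set, with r = 0.981, or 0.968 over deviations within fractions, and CENPF followed with 0.972 and 0.956. TMEM44 gave 0.971 and 0.942, SSB, an RNA-binding protein, gave 0.967 over the arrays, and the cell cycle phosphatase CDC25B gave 0.939 over deviations. CENPF fell more steeply than CTCF, while NUP88 and CDC25B read -0.30 and -0.08.

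SMC4 was most like PDRG1 (r = 0.971), the heat shock factor HSF2 (0.967), the chromatin protein DEK (0.965) and NAE1, part of the enzyme that activates NEDD8 (0.959). Within fractions the order was MTF2, a Polycomb-associated protein, at 0.981, GPN3 at 0.966, the kinetochore protein CENPH at 0.956 and AWN at 0.956. DEK read -0.38, HSF2 -0.38, NAE1 -0.43 and PDRG1 -0.33, all smaller differences than that of SMC4. ESCO1 was most like GCC2, a Golgi tether, with r = 0.988, or 0.921 within fractions. PRPF4B, a splicing kinase, gave 0.968, ANGEL2 gave 0.961 and CFDP1 gave 0.960. Within fractions FNBP1L gave 0.954, MAZ 0.916 and PRPF38B, a splicing factor, 0.912. The sets named for the 3 genes had no gene in common. With only 4 of 5692 genes named per measure, nothing is read from that. The sets named over the 10 arrays include the difference between fractions, so they are no support for it.

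**Figure D4:**
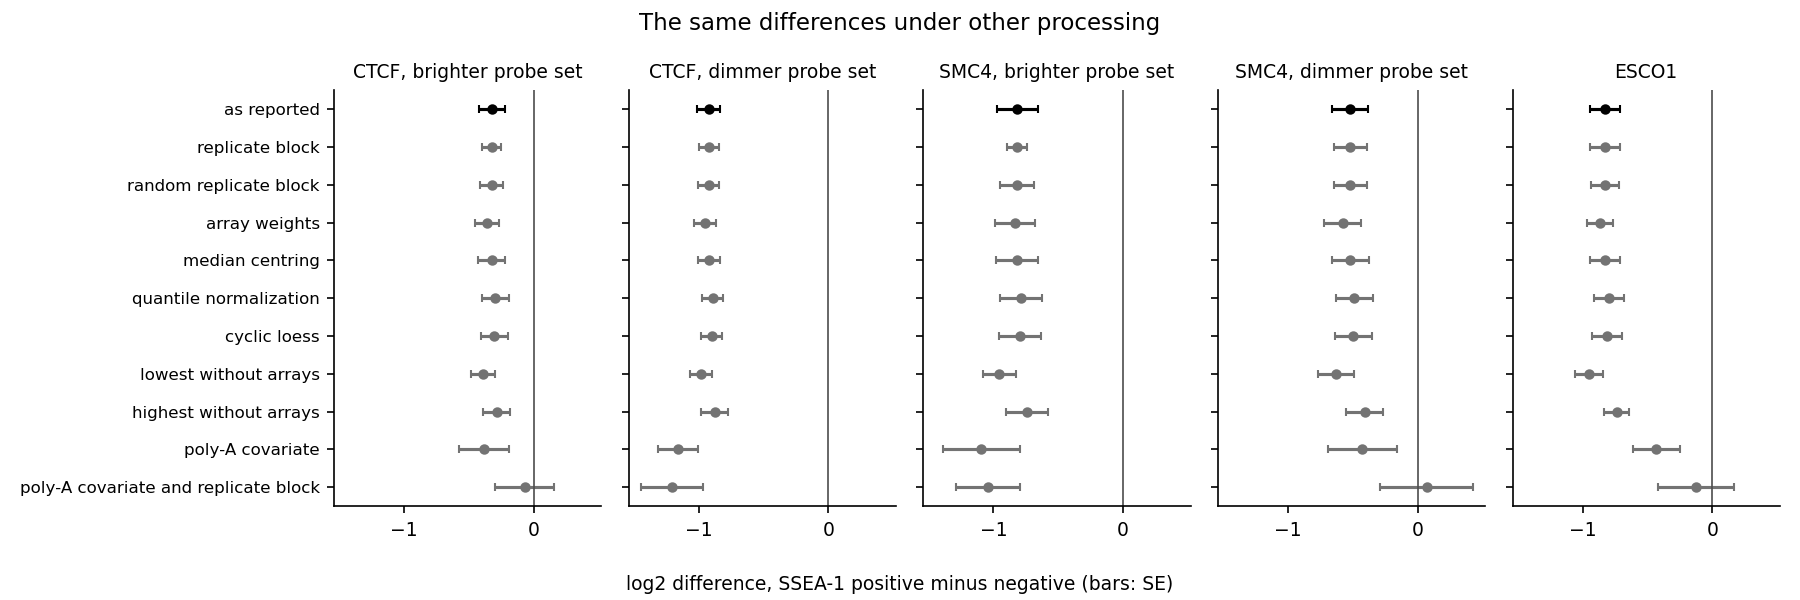
Log2 difference, SSEA-1 positive minus negative, with its SE for each of the 5 probe sets (panels, shared horizontal axis) as reported (black) and under other processing (grey), including the lowest and highest of 15 leave-outs. Under the poly-A covariate ESCO1 moves from -0.83 to -0.43. In the fit that adds the replicate block to it, the dimmer SMC4 probe set crosses 0 at 0.069.

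Markers of other cell types were compared as summed signals. Of 6 endothelial markers CDH5 and TEK lay below background on all arrays, as did PTPRC and SPI1 of 5 measured blood markers. Others lay above background on every array: PECAM1 and VWF (endothelial), HBB (blood), and KRT8, KRT18 and KRT19 (epithelial). So did DES and ACTC1 (skeletal muscle) and SOX10 and NCAM1 (neural). Summed log2 signals ran from 1.53 to 2.44 in SSEA1+ and 1.71 to 2.18 in SSEA1- for endothelial, 7.81 to 10.6 and 7.10 to 10.9 for 5 epithelial, and 13.4 to 14.7 and 12.1 to 14.5 for 4 skeletal muscle markers. They ran from 5.28 to 6.17 and 5.25 to 5.71 for blood, 4.88 to 5.27 and 4.68 to 5.29 for 2 neural, and 0.81 to 1.11 and 0.60 to 1.03 for 2 pluripotency markers. None of these markers passed in limma. An unadjusted p under 0.05 in limma was found for 3 of 5 epithelial and 1 of 2 neural markers, against 23.8% of all genes. All of these read higher in SSEA1+: EPCAM by 0.25, CDH1 by 0.18, KRT19 by 0.40 and NCAM1 by 0.21. EPCAM and CDH1 lay near background, and KRT19 passed with the block. The other epithelial markers, KRT8 and KRT18, read -0.055 and -0.089, and SOX10 read -0.072. Of the 9 fibroblast markers COL1A2 rose, and THY1, with SSEA1+ wholly above SSEA1-, had a limma adjusted p of 0.0564, or 0.0146 with the block. In all 6 lists the ranges overlapped between fractions.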

How the data were processed

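Each array's deposited table holds 1 log2 signal for every probe set. The authors summarised probes by RMA, per the submitters' processing notes, and the sources used here give neither its version nor its background setting. Between 4.55% and 8.16% of each array's values lie below 0, which standard RMA rarely gives, so a further step on the deposited scale is possible and folds assume that the values are plain log2 signals. Arrays were matched to fraction and replicate number by the labels. Array medians ran from 1.15 to 1.19, and nothing further was normalized; the number of arrays limits precision. The background level was the 95th percentile of the values of 23 control probe sets (Tag and TrpnX), whose targets are not meant to be in the samples.

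Names came from the platform annotation (Affymetrix porcine array) checked by Entrez identifier against RefSeq genes of Sscrofa11.1: 10099 probe sets had 1 symbol, 198 several and 13826 none in that table; 9989 matched by identifier. A gene was read from its brightest probe set. Sequences of probes or genes were not used here.

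All probe sets were fitted in limma 3.58.1 (R 4.3.3; lmFit, eBayes), SSEA1+ minus SSEA1-, with Benjamini-Hochberg adjustment over 24123 probe sets. The main fit was tested on simulated data whose arrays varied independently. These had neither pairs nor a poly-A level tied to the fraction, so the test does not bear on either. The members and lists were chosen with earlier results of these data known. Named besides the members were genes of the 6 partner lists that passed and up to 3 more of each by p, 4 of each wider list, and the 4 genes most like each member by each measure; placeholder symbols were left out.

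Same-numbered arrays deviated together (r of 0.212, 0.580, 0.353, 0.122 and 0.235 for replicates 1 to 5). By the series text 5 replicates gave 5 fractions of each kind, so equal numbers were read as likely pairs. The main fit was still unpaired, and the fit with a block for the replicate number was an alternative. The pairing is least certain for both arrays of replicate 4 and SSEA1- replicate 5, which correlated better with another number, at 0.297 to 0.314. The poly-A level was the mean of 36 poly-A control probe sets minus that of 27 hybridisation control probe sets. Other alternatives were a random block, trend and robust eBayes, array weights, 3 rescalings, a filter on level, a fit without controls, other thresholds and leave-outs.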

Additional observations from a re-analysis of the deposited data

Results flagged for a closer look

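Among 112 groups of 5 arrays checked for an array far from the rest, 4 were found, and chance alone gives about 1 in 20 groups. WAPL read 4.34 in SSEA1+ replicate 3, where the nearest of the other 4 arrays read 4.87. PRPF4B, named for its likeness to ESCO1, read 4.28 in the SSEA1+ fraction against a nearest value of 4.66. In SSEA1- replicate 2, PTTG1 read 4.36 against 5.57 and TMPO 1.85 against 2.93. None of the probe sets of CTCF, SMC4 or ESCO1 was among them.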

How the results depend on the processing

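In the fit with a replicate block, the differences of the 5 probe sets were the same, 6 rather than 2 genes of the 6 partner lists passed, 31 rather than 7 genes of the 10 lists, and 2832 rather than 1495 of all probe sets; a random replicate block gave 5, 15 and 2561. With the poly-A level as a covariate, 0, 0 and 12 passed in limma, the dimmer CTCF probe set read -1.16 and ESCO1 -0.43. With the covariate and the replicate block, 0, 0 and 4 passed, with 5 of 19 and 27 of 61 genes at an unadjusted p under 0.05. The brighter CTCF probe set then read -0.070, the dimmer one -1.21, ESCO1 -0.13 and the dimmer SMC4 probe set 0.069, and SIN3A (0.029), SYNE2 (0.56), PRPF4B (0.087) and PRPF38B (0.14) also changed sign. The mean over probe sets gave -0.62 for CTCF, and 1 and 4 list genes. Array weights gave 4 and 13, quantile normalization 1 and 4, and cyclic loess 1 in the partner lists. Thresholds of 0.01 and 0.1 gave 0 and 4 in the partner lists, 1 and 13 in the 10 lists, and 400 and 2430 probe sets. Over 15 leave-outs the counts ran from 0 to 3, 1 to 20 and 384 to 1834. The differences ran from -0.40 to -0.29 and -0.98 to -0.88 for CTCF, -0.95 to -0.74 and -0.63 to -0.41 for SMC4, and -0.95 to -0.74 for ESCO1. The cause of these changes was not tested. All 5 probe sets of the 3 genes lay above background on all 10 arrays, and 5 arrays a fraction limit the precision.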
